A study of Homo sapiens with 36 samples.

Results

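The genes described here encode the coats, receptors and GTPases of the vesicles that move proteins between the endoplasmic reticulum (ER) and the Golgi. They were taken by symbol from the deposited expression table, and all 38 were found once each among its 60662 gene IDs. All 38 are protein-coding and all passed the filter on low counts. They comprise 11 coat and SAR1 genes of COPII vesicles, the exit-site genes SEC16A and PREB, the SNARE gene SEC22B, 9 subunits of the COPI coat, 3 KDEL receptors, 7 genes of the p24 family, 3 lectin cargo receptor genes and 2 ARF GTPases. The cells were A549, an established line from a human lung adenocarcinoma. They received a non-targeting siRNA (siControl) or siRNA against ATF4 or ATF6, each at 100 nM, and every transfected culture was later divided over wells. Cells of each siRNA were then kept in medium with 25 mM glucose or with none (0 mM) for 6 or 16 h, and both media held 10% dialysed serum and 2 mM glutamine. That gives 12 groups of 3 biological replicates, or 36 poly(A)-enriched RNA-seq libraries from 1 cell line, whose replicates are cultures.

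Newly made secretory and membrane proteins leave the ER in vesicles coated with COPII. PREB, the mammalian SEC12, loads the GTPase SAR1 with GTP. SAR1 then recruits the inner coat of SEC23 and SEC24, in which SEC24 binds cargo, and the outer cage of SEC13 and SEC31 assembles over it. COPI coatomer, which ARF1 brings to Golgi membranes, returns receptors and escaped ER residents, and KDEL receptors bind ER chaperones that have reached the Golgi. The unfolded protein response, through XBP1 and ATF6 among others, is known to turn on genes of ER folding and transport when proteins misfold in the ER, as they do when a lack of glucose starves protein glycosylation.

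Library totals ran from 39.4 to 78.7 M expected counts in 35 libraries. The library labelled siATF4, 0 mM, 6 h, replicate 3 held 2.87 M and correlated with no other library above 0.172, against a lowest median of 0.941 among the rest, so it was left out of the values below. At 6 h the libraries labelled replicate 2 of siControl and of siATF6 went against their glucose labels. Over 1939 genes, their log2 ratios of 0 to 25 mM correlated with the change at 16 h at -0.691 and -0.649, where the other 6 h replicates gave 0.575 to 0.690. These are correlations across genes, given as a description. At 16 h the siATF4 libraries departed from the other replicates of their groups along gene length. Across 11174 genes the rank correlation of that departure with effective length was -0.745 in replicate 3 of 0 mM and -0.709 in replicate 2 of 25 mM. It was 0.513 and 0.704 in replicates 1 and 2 of 0 mM and 0.534 and 0.428 in replicates 1 and 3 of 25 mM. Each library was set against the mean of its group's other replicates, so 1 departing library also moves the values of the others. In siControl the correlation lay between -0.312 and 0.242, and in siATF6 between -0.34 and 0.343. ATF6 mRNA ran from 6.09 to 20.9 CPM (counts scaled to a common library total) with siATF6 and from 43.0 to 91.9 with siControl. ATF4 mRNA was lower in every siATF4 library than in every siControl library in 3 of the 4 matched groups, at 118.5 to 139 against 145 to 180 CPM in 25 mM and 158 to 225 against 426 to 498 CPM in 0 mM at 16 h, and 106 to 194 against 303 to 372 CPM in 25 mM at 6 h. In 0 mM at 6 h it overlapped (117 to 212 against 206 to 451 CPM). The keratins KRT8 and KRT18 and the A549 genes AKR1B10 and ALDH1A1 stood at 939.5 CPM or higher in every library. Of the other epithelial genes read, KRT19 ran from 97.0 to 260 CPM, CDH1 from 7.73 to 36.7 CPM and EPCAM from 1.88 to 7.64 CPM. The A549 genes ALDH3A1 and AKR1C1 ran from 635 to 2580 CPM and from 226 to 595 CPM. Among the alveolar genes, NKX2-1, SFTPA1, SFTPB and SFTPC stayed at or below 0.194 CPM. NAPSA ran from 0.230 to 1.42 CPM and ABCA3 from 39.95 to 85.0 CPM. Of 11 markers of blood, endothelial and fibroblast cells, CD3E was at 0, PTPRC, LYZ, PECAM1, VWF, COL1A2 and DCN stayed at or below 0.201 CPM and PDGFRA at or below 0.678 CPM, CDH5 reached 1.77 CPM, COL1A1 ran from 2.68 to 39.0 CPM and CD68 from 15.4 to 115 CPM. The part of these in the results was not tested.

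The first comparison asked how these genes answered 16 h without glucose. In siControl cells 25 of the 38 rose, none fell and 13 did not pass the test, which is edgeR's quasi-likelihood F test with Benjamini-Hochberg adjustment over all 18013 genes at 0.05. Of all genes tested, 14.6% rose and 14.5% fell. The median change of the 38 was 0.53 on the log2 scale, and that of all genes 0.01. In siATF4 cells 24 rose and 1 fell (14.9% and 14.2% of all genes), with a median of 0.55. In siATF6 cells it was 25 and 1 (15.6% and 17.9% of all genes), with a median of 0.64. The genes that rose in all 3 siRNAs numbered 21, and 8 passed in none: COPG2, COPZ2, SAR1A, SAR1B, SEC16A, SEC23A, SEC24A and SEC31B. The shares of all genes that rose in all 3 siRNAs or passed in none were not counted. The first can be no larger than the 14.6% that rose in siControl. In bulk libraries scaled to a common total, fewer responding cells and less RNA per cell cannot be told apart. P-values set the changes against the spread between cultures of this 1 line. A single fit over all 36 libraries, with the failed library and 6 h replicate 2 in it, kept the medians (0.53, 0.55 and 0.66) but called 0, 0 and 1 members with edgeR (1, 4 and 4 at an unadjusted p under 0.05). That fit was not run with DESeq2, and it called 2.83%, 1.73% and 4.44% of all genes.

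**Figure D1:**
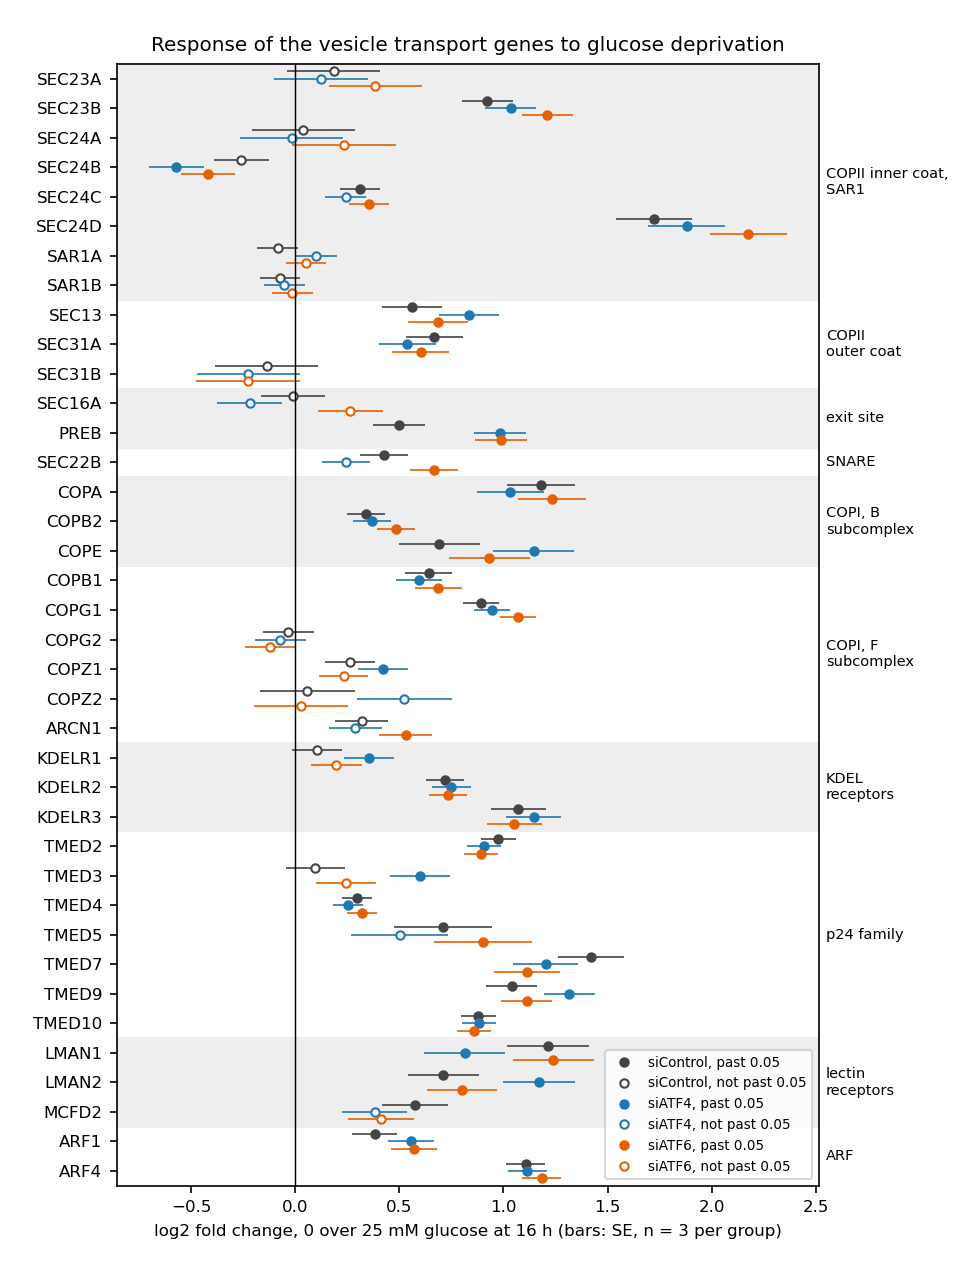
Log2 fold change of each of the 38 genes between 0 and 25 mM glucose at 16 h in siControl, siATF4 and siATF6 cells, with SE (n = 3 cultures per group). Filled points passed 0.05 in edgeR. SEC24D lies farthest right in every siRNA (1.72, 1.88 and 2.18), and SEC24B is the only gene with filled points left of 0.

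In the COPII inner coat, SEC24D and SEC23B had the largest changes and the SAR1 genes did not pass. SEC24D, a cargo-binding subunit, stood at 38.4, 36.01 and 35.1 CPM in the siControl libraries with glucose and at 129.5, 114 and 118 CPM in those without. All 3 deprived libraries lay far above the others, and SEC24D rose by 1.72 ± 0.18 (log2 ± SE, adjusted p = 4.1e-06 in edgeR), the largest change among the 38. In siATF4 it went from 24.7 to 39.1 CPM up to 80.4 to 142 CPM, and in siATF6 from 37.1 to 41.9 CPM up to 166 to 189 CPM. The siATF4 library with the lowest deprived value, 80.4 CPM, was replicate 3. SEC23B, the partner that activates the GTPase of SAR1, was at 127, 109 and 104 CPM with glucose and at 241, 204 and 201 CPM without. The groups did not overlap, and SEC23B rose by 0.92 ± 0.12 (adjusted p = 3.75e-05 in edgeR), and by 1.04 in siATF4 and 1.21 in siATF6. SEC24C rose by 0.31, from 164 to 170 CPM up to 200 to 216 CPM. In GENCODE 29, 42.9% of its exon length is shared with 1 or more genes on the opposite strand. The largest overlap is with AC022400.8, and these unstranded reads cannot be assigned by strand.

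The other inner-coat genes did not rise. SEC24B stood at 43.3, 43.9 and 42.3 CPM with glucose and at 37.28, 35.15 and 35.95 CPM without in siControl, a change of -0.26 that missed the threshold (adjusted p = 0.155) although the groups did not overlap. In siATF4 it fell by 0.57 (adjusted p = 0.00412) and in siATF6 by 0.42 (adjusted p = 0.021, edgeR), and it was the only one of the 38 to fall anywhere at 16 h. The call in siATF6 was lost without the library of 25 mM replicate 2 or 3 or of 0 mM replicate 3 and without the filter on low counts, and the call in siATF4 was lost with only its own libraries in the fit, which in turn called SEC24B in siControl (adjusted p = 0.0174 in edgeR). SEC23A (0.18) and SEC24A (0.04) did not pass in siControl, and neither did the SAR1 GTPases SAR1A (-0.08) and SAR1B (-0.07), which start coat assembly.

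The outer cage and the exit site showed the same division between genes. SEC31A, the main cage subunit, was at 111, 105 and 102 CPM with glucose and at 166, 166 and 176 CPM without, and rose by 0.67 ± 0.14 (adjusted p = 0.00168 in edgeR). SEC13, its partner in the cage and also a nucleoporin, went from 136, 149 and 132 CPM to 194, 216 and 206 CPM and rose by 0.56 ± 0.14 (adjusted p = 0.00828 in edgeR). For both genes every deprived siControl library lay above every library with glucose. SEC31B, the paralog present at 4.76 to 8.02 CPM with glucose, changed by -0.14 with overlapping groups. PREB, which loads SAR1 with GTP, stood at 88.4, 104 and 94.5 CPM with glucose and at 138, 136 and 132 CPM without, a rise of 0.50 ± 0.12 (adjusted p = 0.00662 in edgeR). SEC16A, the scaffold of exit sites, stayed between 165 and 180 CPM in all 6 siControl libraries, with a change of -0.01. SEC22B, a SNARE that fuses vesicles between ER and Golgi, was at 49.5, 45.1 and 43.1 CPM with glucose and 69.4, 60.5 and 55.6 CPM without. It rose by 0.43 ± 0.12 (adjusted p = 0.0107 in edgeR), and in siATF4 its change of 0.24 did not pass.

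Coatomer is built from a cage-like B subcomplex and an adaptor-like F subcomplex. All 3 genes of the first rose in every siRNA. COPA, its largest subunit, stood at 200.2, 198 and 184 CPM with glucose and at 452, 432 and 438 CPM without in siControl. The groups were wide apart, and COPA rose by 1.18 ± 0.16 (adjusted p = 5.46e-05 in edgeR), by 1.03 in siATF4 and by 1.23 in siATF6. COPB2 was at 119.5, 119.9 and 118.3 CPM with glucose and at 159.3, 149.9 and 144.7 CPM without, a rise of 0.34 ± 0.09 (adjusted p = 0.0102 in edgeR). COPE rose by 0.69, 1.15 and 0.93 in siControl, siATF4 and siATF6, and its siATF4 value rests partly on replicate 3, where it reached 263 CPM against 166 and 128 CPM in the other replicates.

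Of the 6 genes of the F subcomplex, COPB1 and COPG1 rose in all 3 siRNAs. COPG1, a subunit that binds ARF1 and cargo, went from 115, 110 and 105 CPM to 202, 203 and 207 CPM in siControl, with no overlap and a rise of 0.89 ± 0.09 (adjusted p = 1.58e-06 in edgeR). COPB1 went from 214, 203 and 193 CPM to 326, 329 and 297 CPM, a rise of 0.64 ± 0.11 (adjusted p = 0.000424 in edgeR). The paralog COPG2 gave -0.03, with 36.2 to 37.8 CPM with glucose lying inside the deprived range of 32.0 to 40.4 CPM. COPZ1 (0.26) and ARCN1 (0.32) did not pass in siControl, but COPZ1 rose by 0.42 in siATF4 and ARCN1 by 0.53 in siATF6. In siATF4 COPZ1 stood at 219, 245 and 210 CPM with glucose. Without glucose it stood at 275, 261 and 377 CPM, so its value there rests partly on replicate 3. COPZ2, a minor paralog at 6.90 to 7.48 CPM with glucose, gave 0.06.

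Among the receptors that return ER chaperones, KDELR2 and KDELR3 rose and the most abundant one did not. KDELR3 stood at 11.2, 13.1 and 13.9 CPM with glucose and at 31.1, 22.9 and 26.4 CPM without in siControl. Its groups did not overlap, and it rose by 1.07 ± 0.13 (adjusted p = 1.97e-05 in edgeR), by 1.15 in siATF4 and by 1.05 in siATF6. KDELR2 went from 243, 214 and 216 CPM to 399, 363 and 348 CPM, a rise of 0.72 ± 0.09 (adjusted p = 2.71e-05 in edgeR). KDELR1 changed by 0.10 in siControl and 0.20 in siATF6 without passing and rose by 0.35 in siATF4 (adjusted p = 0.0382), where replicate 3 held the highest value, 456 CPM. The KDELR1 call was lost without that library and without either replicate 1 or 3 of siATF4 in 25 mM.

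The p24 proteins are small transmembrane cargo receptors that cycle in COPII and COPI vesicles, and 6 of the 7 rose in siControl. TMED2 stood at 297, 291 and 280 CPM with glucose and at 572, 590 and 548 CPM without, and rose by 0.98 ± 0.08 (adjusted p = 4.49e-07 in edgeR). TMED10, its partner in a p24 complex, went from 204, 197 and 188 CPM to 364, 381 and 341 CPM, a rise of 0.88 ± 0.08 (adjusted p = 1.23e-06 in edgeR). Both genes kept their groups apart in every siRNA. TMED7 (1.42), TMED9 (1.04), TMED5 (0.71) and TMED4 (0.30) rose as well. TMED7 shares 24.0% of its exon length in GENCODE 29 with 1 or more genes on the same strand, the largest overlap being with the read-through gene TMED7-TICAM2. TMED3 gave 0.10 in siControl and 0.24 in siATF6 and rose by 0.60 in siATF4, where replicate 3 stood at 327 CPM and the other replicates at 215 and 214 CPM.

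The lectin receptors carry glycoproteins out of the ER or sort them in early compartments. LMAN1, which takes coagulation factors to the Golgi together with MCFD2, was at 136, 118 and 117 CPM with glucose and at 298, 298 and 266 CPM without in siControl, and rose by 1.21 ± 0.20 (adjusted p = 0.000219 in edgeR). In siATF4 its deprived libraries stood at 266, 255 and 137 CPM, so that replicate 3 fell inside the range of 99.7 to 153 CPM with glucose, and the rise of 0.81 became 1.06 without it. LMAN2 went from 170, 194 and 178 CPM to 284, 303 and 299 CPM in siControl, a rise of 0.71 ± 0.17 (adjusted p = 0.00497 in edgeR). MCFD2 rose by 0.57 in siControl, and 0.38 and 0.41 in siATF4 and siATF6 were not past the threshold. These 3 responses were not shown to differ, as the tests of the differences below give no call. The GTPase ARF1 was at 426, 413 and 387 CPM with glucose and at 556, 527 and 516 CPM without, a rise of 0.38 ± 0.11 (adjusted p = 0.0163 in edgeR). ARF4, a Golgi ARF that can act beside ARF1, went from 112, 104 and 105 CPM to 263, 225 and 204 CPM and rose by 1.11 ± 0.09 (adjusted p = 3.86e-07 in edgeR).

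**Figure D2:**
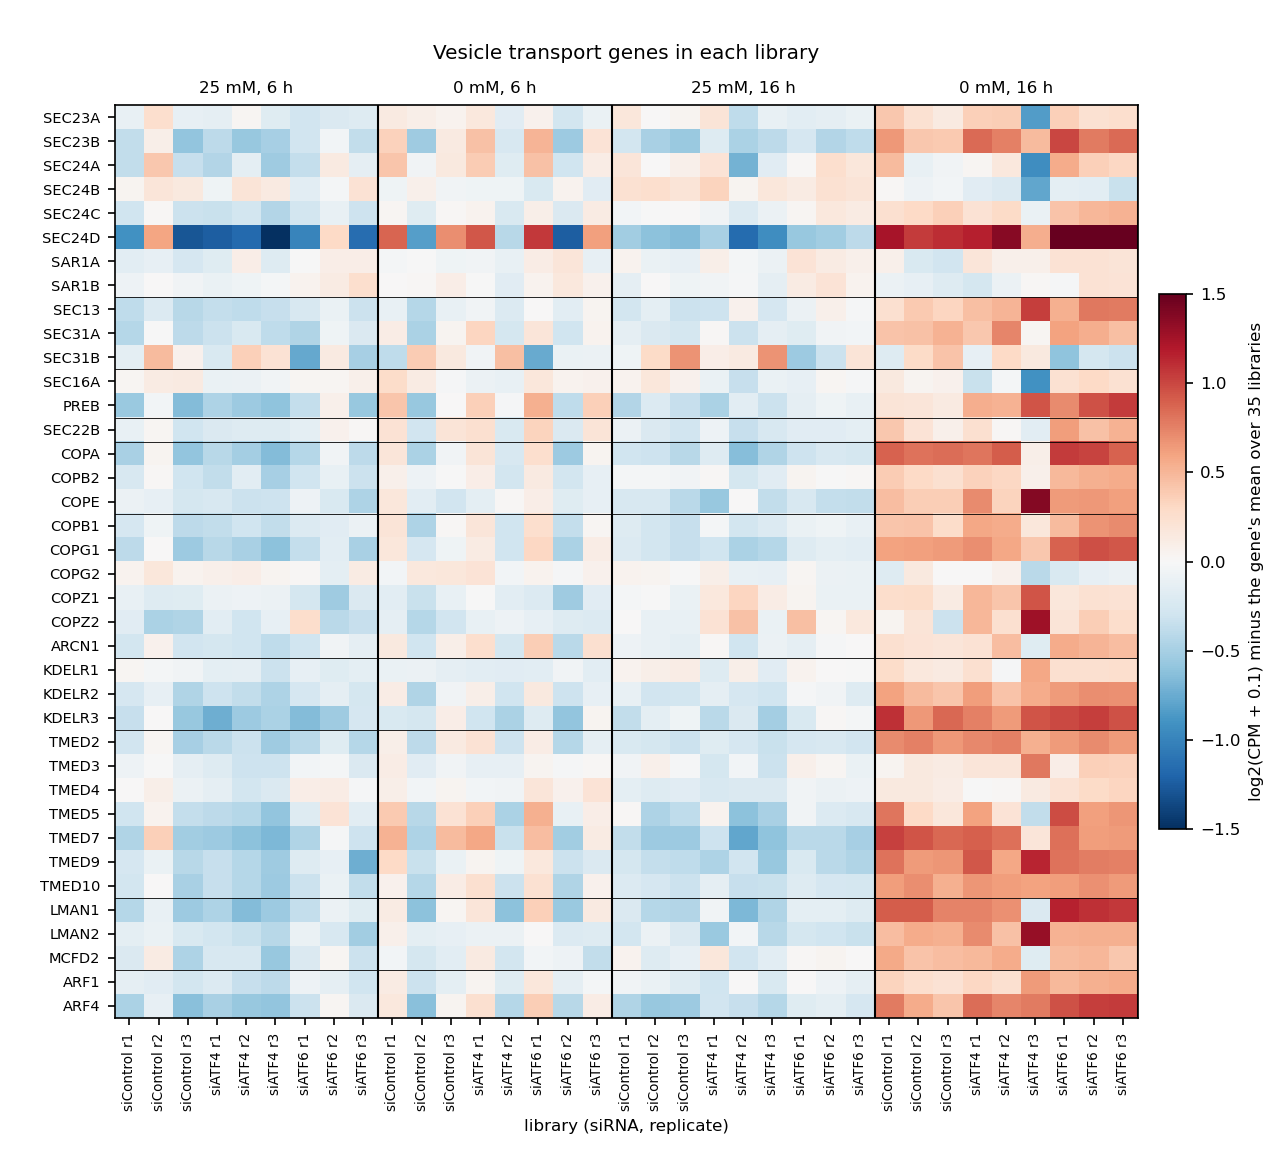
Each cell is the log2(CPM + 0.1) of 1 gene in 1 of 35 libraries minus the mean of that gene over the 35, by glucose, time and siRNA, with genes ordered by role. The colour scale ends at -1.5 and 1.5, the 9 libraries of 0 mM at 16 h are mostly red, siATF4 replicate 3 among them differs from its neighbours, and replicate 2 at 6 h runs against its labels in siControl and siATF6.

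The ratio of paralogs was compared between glucose conditions at 16 h in 9 pairs set by family. The ratios restate the changes of single genes given above in the same libraries, so their p-values are no further support for those changes. How often the ratio of other pairs of genes moved was not counted, so the number of moved pairs only describes these families. Of all genes, 29%, 29.1% and 33.5% passed for deprivation at 16 h in siControl, siATF4 and siATF6. An exact permutation test (2-sided) permuted the glucose labels within each siRNA over 8000 relabellings, whose smallest possible p is 0.00025, and p-values were adjusted over the 9 pairs. The relabelling took no account of replicate numbers, although same-numbered libraries deviated together for deprivation in siControl and siATF6. The log2 ratio of SEC24D to SEC24C moved by 1.62 (adjusted p = 0.00075, n = 9 per condition, exact permutation test) and ran from -2.56 to -2.06 with glucose and from -0.98 to -0.37 without. SEC23B over SEC23A moved by 0.85 and COPG2 over COPG1 by -1.05 (both adjusted p = 0.00075, exact permutation test), and in these 3 pairs no deprived library overlapped one with glucose. SEC31B over SEC31A (-0.77), KDELR2 over KDELR1 (0.52), KDELR3 over KDELR2 (0.35) and SEC24B over SEC24A (-0.49) also moved, with overlapping ranges (largest adjusted p = 0.000964, exact permutation test). SAR1B over SAR1A gave -0.07 (adjusted p = 0.307, exact permutation test) and COPZ2 over COPZ1 -0.12 (adjusted p = 0.167, exact permutation test). Leaving out the siATF4 library of 0 mM replicate 3 brought the COPZ pair to -0.16, past the threshold (adjusted p = 0.0264, exact permutation test).

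On a scale of CPM per kb of effective length, which allows genes to be compared, the make-up of these families changed. SEC24D made up 14.9% ± 0.651 of SEC24 mRNA in siControl cells with glucose and 33.6% ± 1.34 without (SD, n = 3), while SEC24C went from 60.7% to 51.3%, SEC24B from 14.5% to 8.25% and SEC24A from 9.82% to 6.85%. The summed level of the family went from 71.7 ± 0.184 to 105 ± 3.12 CPM per kb. SEC23B went from 48.9% to 61.5% of SEC23 mRNA, and COPG2 from 21.1% to 12.3% of COPG mRNA. KDELR1 was still the larger part of KDEL receptor mRNA, at 71.7% with glucose and 61.7% without.

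**Figure D3:**
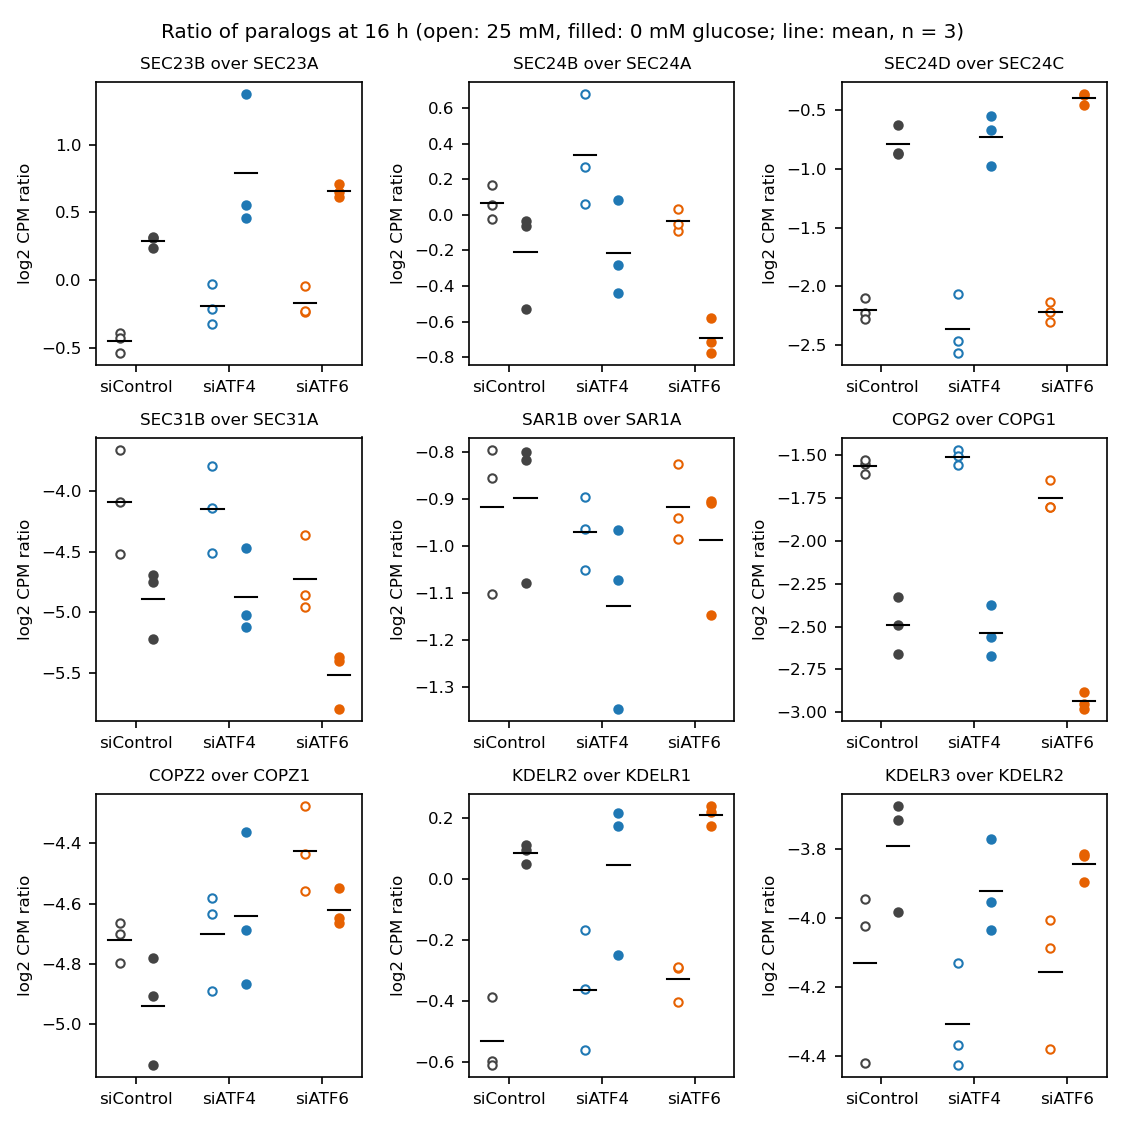
Log2 ratio of CPM between paralogs in each 16 h library, by siRNA, for 25 mM glucose (open) and 0 mM (filled), with lines at the mean of 3 libraries. Open and filled points separate fully for SEC23B over SEC23A, SEC24D over SEC24C and COPG2 over COPG1, and mix for SAR1B over SAR1A and COPZ2 over COPZ1.

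The next comparison asked whether silencing ATF4 or ATF6 altered this response. No member's response to deprivation differed past the threshold in edgeR between siATF4 and siControl, siATF6 and siControl, or siATF4 and siATF6 (0.172%, 0% and 0.355% of all genes did, of which 0.0111%, 0% and 0.15% with a larger value in the first and 0.161%, 0% and 0.205% with a smaller one). At an unadjusted p under 0.05 there were 2, 1 and 2 members, and DESeq2 called 0 in each. The response of PREB was 0.49 ± 0.18 higher than in siControl in both knockdowns (adjusted p = 0.459 and 1, edgeR), and that of TMED3 0.50 ± 0.20 higher in siATF4 (adjusted p = 0.506, edgeR). Between siATF4 and siATF6, COPZ2 differed by 0.50 ± 0.32 and SEC16A by -0.48 ± 0.22 (adjusted p = 0.642 and 0.504, edgeR). The median difference of the 38 was 0.01 for siATF4 and 0.07 for siATF6. Both of these comparisons use the same siControl libraries.

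In 25 mM glucose at 16 h no member differed between either knockdown and siControl in edgeR (0.0444% of all genes for siATF4, with 0.0222% higher and 0.0222% lower, and 0.749% for siATF6, with 0.189% higher and 0.561% lower). For siATF4, 0 members had an unadjusted p under 0.05 and DESeq2 called 0. For siATF6 it was 1 member, ARF4, which DESeq2 called at an adjusted p of 0.0166 among 2.78% of all genes. Without glucose, PREB was the gene that both knockdowns raised above siControl. Its 138, 136 and 132 CPM in siControl compare with 175, 173 and 232 CPM in siATF4 and 196, 234 and 249 CPM in siATF6, so that all 6 knockdown libraries were above all 3 of siControl. The difference was 0.72 ± 0.12 for siATF6 (adjusted p = 0.00409 in edgeR) and 0.50 ± 0.12 for siATF4 (adjusted p = 0.0204 in edgeR). The siATF6 call held in each setting tried except the fit over all 36 libraries. The siATF4 call was lost without any 1 of the 3 siControl libraries, without siATF4 replicate 3, with only the libraries compared in the fit and with all 36 libraries.

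Besides PREB, siATF6 raised ARF4 in 0 mM glucose, from 263, 225 and 204 CPM in siControl to 298, 314 and 318 CPM (0.41 ± 0.09, adjusted p = 0.0195 in edgeR). That made 2 of the 38 higher and none lower, against 1.11% and 2.91% of all genes (4.02% in either direction). The ARF4 call was lost without siControl replicate 2 or 3, without siATF6 replicate 2 or 3, without the filter on low counts, with only the libraries compared and with all 36 libraries. Replicate numbers paired these libraries, and with the number as a block 6 members passed (5 higher and 1 lower), against 10.2% of all genes: PREB, ARF4, SEC23B, SAR1A and COPG1 were higher and SEC31B lower. DESeq2 called 8, all higher, against 8.71% of all genes. SEC24D, at 0.56 ± 0.18 (adjusted p = 0.0941 in edgeR), did not pass. None of the 38 was lower with siATF6 at 16 h in the fit without the block.

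With siATF4 in 0 mM glucose, 3 of the 38 were higher and none lower (7.32% and 5.09% of all genes). They were PREB, COPZ1 and COPZ2, the last 2 being zeta subunits of coatomer. COPZ1 stood at 275, 261 and 377 CPM against 234, 237 and 213 CPM in siControl (0.40 ± 0.12, adjusted p = 0.0395 in edgeR). COPZ2 stood at 10.6, 8.85 and 18.2 CPM against 7.70, 8.54 and 5.96 CPM (0.75 ± 0.23, adjusted p = 0.0446 in edgeR). In both genes the groups did not overlap, and replicate 3 was the highest by a wide margin. The departure of that library from the other replicates had a rank correlation of -0.84 with effective length over the 38 members. COPZ2 and COPZ1 have effective lengths of 534 and 1110 bases. Whether gene length had a part in these calls was not tested. With replicate 3 of siATF4 in 0 mM left out the differences were 0.37 for COPZ2, 0.22 for COPZ1 and 0.35 for PREB, and no member passed. The COPZ1 and COPZ2 calls were also lost without any 1 of the 3 siControl libraries (0.34 to 0.43 for COPZ1 and 0.60 to 0.86 for COPZ2), without the filter on low counts, with only the libraries compared and with all 36 libraries.

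After 6 h no member passed in siControl, siATF4 or siATF6 with the libraries as labelled, nor did any gene of the 18355 tested (0% each). At an unadjusted p under 0.05 there were 0, 4 and 0 members, and DESeq2 called 0 in each. The values split by replicate. SEC24D in siControl stood at 29.2, 83.0 and 22.5 CPM in replicates 1, 2 and 3 with glucose and at 101, 31.0 and 88.9 CPM without. In siATF6 it was 27.6, 67.8 and 24.8 CPM with glucose and 115, 23.2 and 84.6 CPM without. In both, the libraries labelled replicate 2 had the order of glucose reversed, and the median log2 ratio of 0 to 25 mM over the 38 was -0.25 and -0.17 there, against 0.27 to 0.38 in replicates 1 and 3. In siATF4 SEC24D stood at 23.3, 24.5 and 17.7 CPM with glucose and at 105 and 41.0 CPM without.

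With replicate 2 of 6 h left out, 10 members rose in siControl, 8 in siATF4 and 8 in siATF6 and none fell (3.92%, 1.17% and 1.82% of all genes passed in either direction). In siControl and siATF6 the choice followed from how those libraries responded, so these calls rest on it, and siATF4 then had 1 library in 0 mM that is taken to vary like the other groups. SEC24D, SEC23B, TMED7 and LMAN1 were called in all 3 siRNAs. SEC24D was higher by 1.88 ± 0.20 in siControl (adjusted p = 0.00324 in edgeR), by 2.37 in siATF4 and by 1.95 in siATF6, and TMED7 by 0.98, 1.21 and 0.70. PREB (0.83), SEC23B (0.72), ARF4 (0.65), SEC24A (0.64), COPA (0.61), LMAN1 (0.56), TMED2 (0.50) and SEC31A (0.49) were the others in siControl. No member differed between a knockdown and siControl at 6 h in either glucose condition in edgeR, as labelled, where 4 and 1 members with siATF4 and 2 and 0 with siATF6 in 25 and 0 mM had an unadjusted p under 0.05 and DESeq2 called 0. Of all genes, 0% and 0% passed with siATF4 and 0.496% and 0.311% with siATF6, of which 0.0926% and 0.0817% higher and 0.403% and 0.229% lower.

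**Figure D4:**
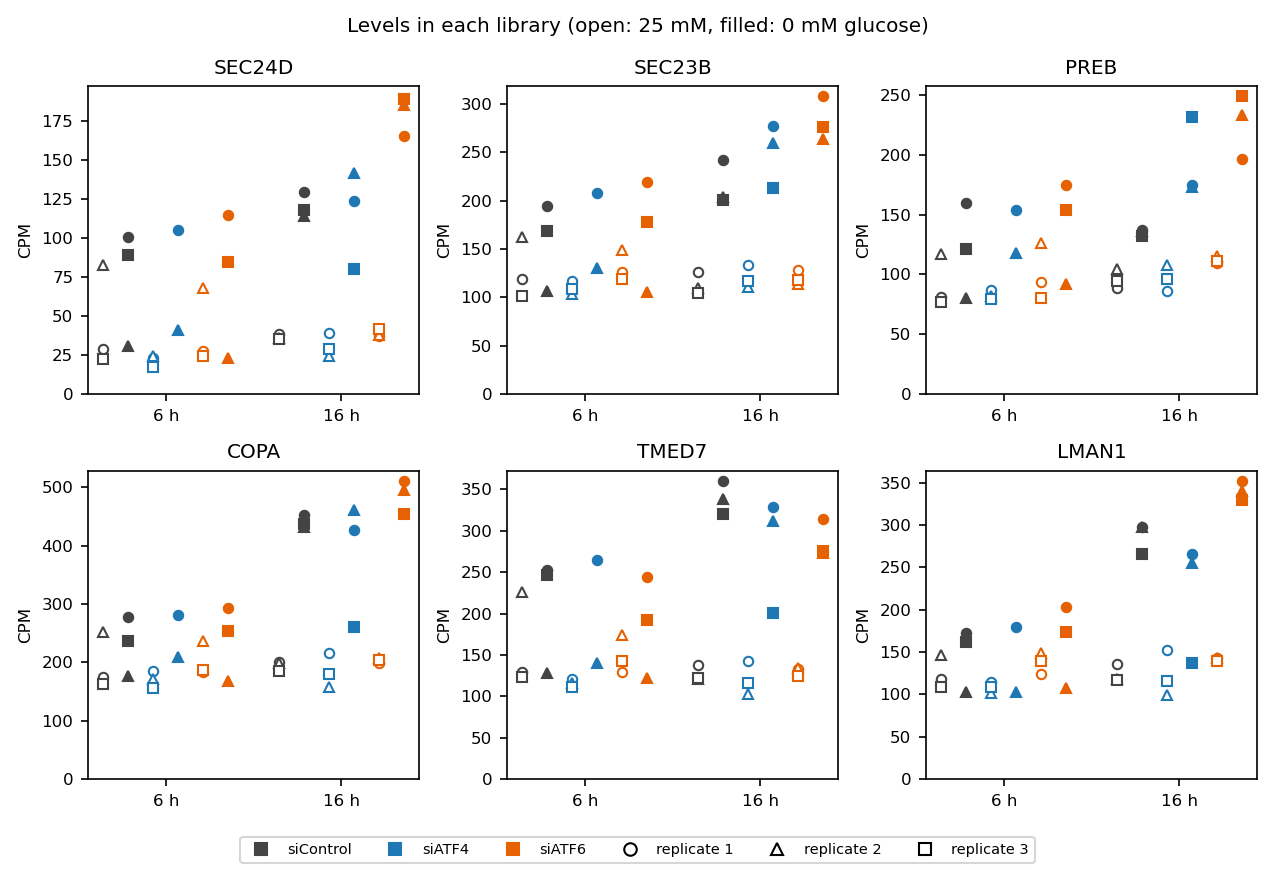
CPM of 6 genes in each of 35 libraries at 6 and 16 h, for 25 mM (open) and 0 mM glucose (filled), by siRNA (colour) and replicate (shape). Open triangles (25 mM, replicate 2) of siControl and siATF6 at 6 h stand among or near the filled points of SEC24D, at 83.0 and 67.8 CPM, and at 16 h all filled points of SEC24D lie above all open ones.

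The response of siControl cells was compared between the time points in 1 fit of 35 libraries. It was larger at 16 h than at 6 h for 7 members and smaller for none (4.09% and 4.53% of all genes). The 7 were COPA (0.95), KDELR3 (0.91), ARF4 (0.82), TMED9 (0.81), TMED2 (0.78), TMED10 (0.70) and KDELR2 (0.57), with adjusted p from 0.0108 to 0.0433 in edgeR. With 6 h replicate 2 left out only TMED2 passed, at 0.47 (adjusted p = 0.0449 in edgeR), out of 4.5% of all genes in either direction. In that setting the response of SEC24D differed between the times by -0.15 ± 0.28 (adjusted p = 0.878 in edgeR).

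Over the 12 groups, 24 members had their highest mean in siATF6, 0 mM, 16 h, 7 in siATF4, 0 mM, 16 h and 3 in siControl, 0 mM, 16 h. The share of all genes that were highest in each group was not counted, so these counts only describe the members. Of the 38, only 2 were called higher with siATF6 than with siControl in 0 mM at 16 h. SEC24B and SEC31B were highest in siControl with glucose at 16 h, SAR1B in siATF6 with glucose at 6 h and COPG2 in siControl, 0 mM, 6 h. Per kb of effective length, levels in siControl with glucose at 16 h ran from 1.95 CPM per kb for SEC31B to 267 CPM per kb for ARF1, with KDELR1 (264), TMED10 (187) and LMAN2 (186) next to ARF1 and SEC24A (7.04) and SEC22B (7.54) next to SEC31B. The neighbours ARF1 and KDELR1, TMED10 and LMAN2, and KDELR3 (10.9) and SEC24D (10.7) differed by less than the SD of either gene.

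Other genes of the route were read from lists of tethers, SNAREs, ARF regulators and further receptors, and of the coats that work beyond the Golgi. Of 49 early secretory genes 18 rose (36.7%) and 3 fell (6.12%) in siControl at 16 h (median 0.23). Of all genes, 14.6% rose and 14.5% fell. MIA2, which helps large cargo leave the ER, rose by 1.66, the ARF GTPase-activating protein ARFGAP3 by 1.37 and the SNARE BET1 by 0.95, while LMAN2L (-0.74), GORASP1 (-0.32) and ZW10 (-0.37) fell. Of 37 genes of clathrin, adaptor and retromer coats 3 rose (8.11%) and 10 fell (27%), with a median of -0.22. AP5Z1 (1.25), AP3D1 (0.63) and AP3S1 (0.55) were higher, and AP5B1 (-0.54), AP1B1 (-0.50) and GGA2 (-0.48) were lower. Read beside the 25 of 38 higher and the median of 0.53 among the vesicle genes, the coats beyond the Golgi had fewer rises than falls.

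Promoters were searched for letters that transcription factors of ER stress are known to bind, since the members moved together. RefSeq windows (GRCh38.p14) of 250 bases before to 50 after a start were matched for 33 of the 38 genes, in 45 windows, and not for ARF4, KDELR2, SEC24D, TMED4 and TMED9. Both strands were read. The letters TGACGTG of the unfolded protein response element, a site of XBP1 and ATF6 that shares its TGACGT with the cAMP response element TGACGTCA, were in 12 of the 45 windows (26.7%), for 10 genes. They were in 1.97% of all 35116 windows, 2.42% of those of genes tested at 16 h, 13.7% of those of the early secretory list and 0% of 41 windows of the coats beyond the Golgi. Of the 10 genes with the letters 7 rose in siControl at 16 h (median 0.47), of the 23 without them 13 rose (median 0.43), and all 5 without a window rose. The others with the letters, SEC16A, SEC23A and SEC24A, passed in no siRNA at 16 h. The ER stress response element (CCAAT, 9 bases, CCACG), its second form (ATTGG, 1 base, CCACG), the cAMP response element and the CEBP-ATF element (TGATG, 1 base, AAT) were in none of the 45 windows and in 0.0769%, 0.0541%, 1.85% and 0.991% of all windows. A match describes letters, not a bound site.

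Shown here are stretches around the letters for 4 genes that rose with deprivation, 5′ to 3′ on the gene's strand, with the letters in capitals, where CACGTCA is TGACGTG read on the other strand. The KDELR3 match lies 45 to 39 bases before the RefSeq start and the COPB1 match 47 to 41. The SEC13 match lies 143 to 137 or 214 to 208 bases before, and the COPB2 match shown 162 to 156 or 195 to 189, depending on the start. Another COPB2 match, not shown, lies at -2 to 4 or at 31 to 37 relative to the start. The COPB1 stretch lies inside the longer span that the deposited table gives that gene.
KDELR3, chr22:38468039-38468068, + strand: ggccgccctggcCACGTCAccgcccggcca
COPB1, chr11:14499841-14499870, - strand: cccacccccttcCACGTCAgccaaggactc
SEC13, chr3:10321223-10321282, - strand: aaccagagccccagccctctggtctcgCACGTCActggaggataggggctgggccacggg
COPB2, chr3:139389810-139389869, - strand: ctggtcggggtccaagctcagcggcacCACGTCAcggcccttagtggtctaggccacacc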

How the data were processed

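Poly(A)-enriched, unstranded libraries of A549 cells were read as pairs of 150 bases, per the labels' protocols. The authors deposited expected counts per gene from RSEM. The submitters' processing notes name fastp, STAR, RSEM and the genome GRCh38, and versions and the annotation release are not given in the sources used here. The deposited table holds 36 columns, and each was matched to its library by the column name in the labels. Expected counts were rounded and tested with edgeR 4.0.16 in R 4.3.3 (filterByExpr by group, minimum count 10 and total 15, TMM factors, robust quasi-likelihood F tests, Benjamini-Hochberg over all genes tested, threshold 0.05). The 16 h comparisons used 18 libraries, the 6 h ones 17, and the time comparison 35, with 1 mean per group. DESeq2 1.42.0, other scaling, no filter, blocks by replicate number or transfection, other sets of libraries and each library left out were alternatives.

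CPM use the TMM-scaled totals of 35 libraries. Ratios of paralogs are log2(CPM + 0.1). Lengths are the effective lengths of the deposited table. Exon overlaps come from GENCODE 29 and promoters from RefSeq. The count test and the permutation test were tested on simulated data.

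The 38 genes, the paralog pairs, the context lists and the rule for named genes were chosen with earlier results of these data known. The rule gave, for each role, the 2 genes with the smallest adjusted p in siControl at 16 h, genes opposite to their role's majority, and genes past the threshold in a knockdown or interaction at 16 h. Other genes are named to account for all 38 and were chosen with their values seen. Of the early secretory list and the list of coats beyond the Golgi, up to 3 genes per direction with the smallest adjusted p were named. The regulators were not named by this rule.

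Same-numbered libraries deviated together from their group means, with every correlation above 0.1, for deprivation in siControl (0.218 to 0.481) and siATF6 (0.109 to 0.329) at 16 h and for siATF6 against siControl in 0 mM (0.167 to 0.563) and in 25 mM and siATF4 against siControl in 25 mM at 16 h. At 16 h they did not for deprivation in siATF4 (-0.325 to 0.515) or siATF4 against siControl in 0 mM (0.072 to 0.498). At 6 h they did for the knockdowns (0.296 to 0.565, with 2 pairs for siATF4 in 0 mM) and for the 2 pairs of deprivation in siATF4. They did not for deprivation in siControl (-0.00808 to 0.388) and siATF6 (0.0982 to 0.362). Values such as 0.109, 0.0982 and 0.072 lie close to the limit of 0.1 on either side, so this division is not sharp.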

Additional observations from a re-analysis of the deposited data

Results flagged for a closer look

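For 7 genes the deprivation response in siControl cells differed between 16 h and 6 h by the interaction test in edgeR, with replicate 2 of 6 h kept as labelled. The differences, 16 h minus 6 h on the log2 scale, were 0.95 for COPA, 0.57 for KDELR2, 0.91 for KDELR3, 0.78 for TMED2, 0.81 for TMED9, 0.70 for TMED10 and 0.82 for ARF4. With replicate 2 of 6 h left out they were 0.57, 0.34, 0.68, 0.47, 0.60, 0.41 and 0.46 in the same order, and the adjusted p in edgeR passed for TMED2 (0.0449) and ran from 0.0814 to 0.249 for the others.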

How the results depend on the processing

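The 16 h counts of members past the threshold in siControl, siATF4 and siATF6 (25, 25 and 26) went from 20 to 24, 23 to 30 and 25 to 26 when each library was left out in turn, and with all 36 libraries they were 0, 0 and 1. With only the libraries compared, siATF4 gave 12 (7.38%). Shares in parentheses are of all genes in the same fit. For siATF4 against siControl in 0 mM (3 members) leaving out 1 library gave 0 to 8, the fit without a filter 1 (4.48%), the replicate block 6 (22.6%, pairing not met), all 36 libraries 0 (0.0747%) and only the libraries compared 0 (0%). For siATF6 in 0 mM (2) it was 1 to 3, 1 without a filter (1.38%), 6 with the replicate block (10.2%), 8 with DESeq2 (8.71%) and 0 with all 36 libraries (0.0534%). In 25 mM, siATF6 (0) gave 1 with DESeq2 (2.78%) and 1 with only the libraries compared (5.63%). At 6 h, leaving out replicate 2 gave 10, 8 and 8 where the labelled libraries gave 0, and all 36 libraries gave 1 for deprivation in siATF4 (11.8%) and 1 for siATF4 in 0 mM (11.6%). The time comparison (7) went from 0 to 11 with 1 library left out, and gave 3 without a filter (2.76%), 2 with the transfection block (9.36%), 12 with DESeq2 (11.6%), 0 with all 36 libraries (0.133%) and 1 without 6 h replicate 2 (4.5%). The library whose loss left 0 was replicate 2 of siControl, 25 mM, 6 h (12 members at an unadjusted p under 0.05). The replicate block changed no other count by more than 1.5 times. Leaving out 1 library moved the paralog ratios within 0.75 to 0.91 (SEC23B over SEC23A), -0.54 to -0.43 (SEC24B over SEC24A), 1.59 to 1.67 (SEC24D over SEC24C), -0.85 to -0.70 (SEC31B over SEC31A), -0.10 to -0.03 (SAR1B over SAR1A), -1.08 to -1.02 (COPG2 over COPG1), -0.16 to -0.0801 (COPZ2 over COPZ1), 0.49 to 0.57 (KDELR2 over KDELR1) and 0.30 to 0.38 (KDELR3 over KDELR2). Genes near 0 changed sign in siControl at 16 h when 1 library was left out: COPZ2 ran from -0.0575 (without 0 mM replicate 2) to 0.205, and SEC16A from -0.0457 to 0.0225 (above 0 without 25 mM replicate 2 or 0 mM replicate 2 or 3). The cause was not tested.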

Other observations

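CREB3, CREB3L1 and CREB3L2 encode membrane-bound factors related to ATF6, and CREB3L2 is known to activate SEC23A in cartilage. They were read in a list of 7 regulators with ATF4, ATF6, XBP1 and HSPA5. Of the 7, 5 rose with deprivation in siControl at 16 h, against 14.6% of all genes. There HSPA5 went from 708 ± 8.41 to 10420 ± 487 CPM and XBP1 from 39.0 ± 2.15 to 156.5 ± 25.2 CPM (SD, n = 3). In siControl cells at 16 h CREB3 rose with deprivation by 0.63 (adjusted p = 0.00382 in edgeR), CREB3L2 gave 0.54 (adjusted p = 0.128) and CREB3L1 0.08 (adjusted p = 0.945). In siATF4 CREB3 rose by 1.06, from 53.9 ± 5.85 to 114 ± 28.9 CPM (SD, n = 3), and in siATF6 by 0.76, from 57.0 ± 5.56 to 98.3 ± 0.757 CPM. CREB3L2 rose by 0.82 in siATF6. In siATF4 it stood at 63.6 ± 19.2 CPM with glucose and at 91.8 ± 37.5 CPM without (SD, n = 3). SEC23A itself did not pass in siControl, siATF4 or siATF6 (0.18, 0.12 and 0.38).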
